A study of Mus musculus with 12 samples.

Results

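The genes described here encode the enzymes of the polyol and hexosamine pathways, the side branches of glucose metabolism that start from free glucose and from fructose 6-phosphate. They are the 10 rows of the gene count table whose identifiers map to Akr1b3, Sord, Khk, Gfpt1, Gfpt2, Gnpnat1, Pgm3, Uap1, Ogt and Nagk. The table holds 53707 genes, 21061 of which passed the filter on low counts, and all 10 pathway genes were among these. RNA-seq was performed on retinal explants from wild-type C57BL/6J mice at postnatal day 28. They were cultured for 48 hours in Neurobasal-A medium with B27 and N2 supplements and either 5 mM or 25 mM glucose. The paper describes a further 1 hour in Krebs' Ringer medium and immediate processing for RNA-seq, so whether these explants had that hour is unclear. Sclera and retinal pigment epithelium had been removed, so each sample was whole neural retina with its vessels and glia, and no arm with a non-metabolised sugar was analysed here to match the osmolarity of 25 mM glucose. Each condition had 3 biological replicates, and each of these had 2 technical replicates, the first in batch 1 and the second in batch 2. Whether biological replicates came from separate animals is not given in the sources used here, so the p-values measure only the spread between these samples.

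In the polyol pathway, aldose reductase reduces glucose to sorbitol with NADPH and sorbitol dehydrogenase oxidises sorbitol to fructose, which ketohexokinase phosphorylates. In the hexosamine pathway, glutamine fructose-6-phosphate transaminase makes glucosamine 6-phosphate, which is acetylated, isomerised and joined to UDP to give UDP-GlcNAc, the donor for N-glycans, glycosaminoglycans and O-GlcNAc. Both branches are widely studied in the diabetic retina, where they take up glucose that exceeds the needs of glycolysis.

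Library totals were 17998905 to 36692484 expected counts at 5 mM and 14815285 to 23129541 at 25 mM. Libraries held high levels of rod markers, and the summed CPM (counts per 1000000 counts of a sample, with library sizes scaled by TMM) of the 7 rod markers were 2480 to 4920 at 5 mM and 5420 to 7520 at 25 mM. Of the 7, 4 passed the test as higher, beside 1.98% of all genes in either direction. The 5 cone markers summed to 27.3 to 36.4 and 38.8 to 52.5 CPM, and 1 passed as higher. The 5 amacrine markers summed to 180 to 214 and 92.4 to 169, though 3 had a positive fold change. Bipolar and ganglion sums overlapped. The 9 vascular markers summed to 1200 to 2040 CPM at 5 mM and 614 to 1090 at 25 mM, the 6 microglial markers to 59.7 to 120 and 33.5 to 66.0, and the 7 Mueller glia markers to 3150 to 4240 and 2020 to 2940. Of the vascular markers 8 had a negative fold change and 5 lay below without overlap, beside 15.8% of all genes. The log2 fold changes of Rgs5 (0.09) and Kdr (-0.03) were near 0. The Mueller glia sum does not stand for its 7 markers, of which 3 had a positive and 4 a negative fold change. Vim had the widest gap, with 1264 to 2209 CPM at 5 mM and 472 to 926 CPM at 25 mM, while Slc1a3 lay above at 25 mM without overlap. The 5 tested markers of the removed pigment epithelium summed to at most 7.40 CPM in any sample, its defining gene Rpe65 did not pass the filter, and the 2 tested lens markers summed to at most 1.29 CPM. The part of these marker differences in the pathway values was not tested, and in whole retina fewer cells of a type cannot be told apart from less RNA per cell. One sample stood apart in the fit, since leaving out 5 mM replicate 1 moved the number of genes with a false discovery rate (FDR) under 0.05 from 417 to 5845, while leaving out 5 mM replicate 2 or 3 or 25 mM replicate 1 or 2 moved it to 0 (edgeR, with 3813 to 4071 genes at an unadjusted p under 0.05).

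None of the 10 pathway genes passed an FDR of 0.05 in edgeR's quasi-likelihood test between 25 mM and 5 mM, where 417 of the 21061 genes tested, 1.98%, passed. One of them, Sord, had an unadjusted p under 0.05, as did 6052 or 28.7% of all genes. With DESeq2, 1 of the 10 passed, again Sord, beside 3489 of all 21061 genes, and with limma-voom 0 did, beside 418. Without 5 mM replicate 1, edgeR passed 3 of the 10, Sord, Ogt and Nagk, beside 5845 of all 21945 genes tested. With batch 1 libraries alone it passed Gfpt2 and Sord, beside 3279 of 18969 genes. All replicates at 25 mM lay below all replicates at 5 mM for 3 pathway genes, Akr1b3, Sord and Nagk, and above them for none. Among all genes 15.8% lay below and 16.0% above in the same way, and the genes depended on the processing. With library totals in place of TMM, Gfpt1 and Ogt lay above and only Sord below (20.2% and 11.3% of all genes). Batch 1 alone had Ogt above and Gfpt2 and Sord below (20.8% and 20.6% of all genes). Batch 2 alone had Akr1b3 and Sord below (8.23% of all genes above and 7.91% below). Transcript counts summed per gene left Sord below (16.5% of all genes above and 15.7% below). Sord was below in each of these. Fold changes were positive for 5 genes and negative for 5, with a median of -0.15 on the log2 scale beside -0.01 for all genes tested.

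**Figure D1:**
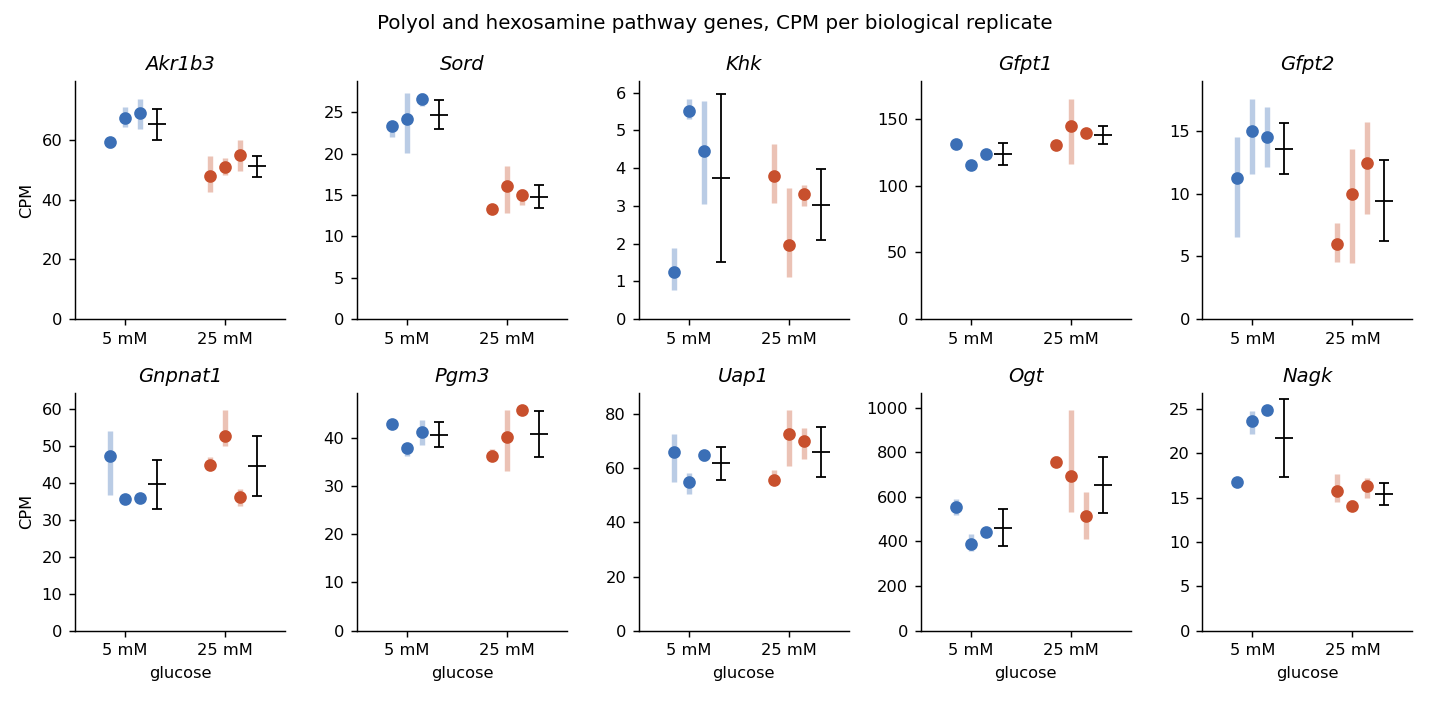
CPM of each of the 10 genes (y axis, from 0) at 5 mM (blue) and 25 mM glucose (red). Points are the 3 biological replicates with their technical replicates summed, pale bars join the 2 technical libraries of each replicate, and the black mark and bar give the mean ± SD. Akr1b3, Sord and Nagk show no overlap between conditions, and the technical libraries of Gfpt2 and of Ogt in 25 mM replicate 2 lie far apart.

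Among the polyol enzymes, Akr1b3 and Sord had all 25 mM replicates below all 5 mM replicates in CPM, as did 15.8% of all genes. Akr1b3 (ENSMUSG00000001642, GRCm38 chr6:34302434-34317478, minus strand) encodes aldose reductase. Its level was 59.4, 67.4 and 69.2 CPM in the 3 replicates at 5 mM and 47.9, 50.9 and 54.9 CPM at 25 mM. The highest 25 mM replicate lay just under the lowest 5 mM replicate, so the conditions did not overlap. The log2 fold change was -0.35 ± 0.16 (SE, n = 3 per condition; edgeR, adjusted p = 0.179). It was -0.20 with batch 1 alone (adjusted p = 0.493), -0.49 with batch 2 alone (adjusted p = 0.409) and -0.25 with coding transcripts alone (adjusted p = 0.421). The conditions overlapped with batch 1 alone and with transcript counts summed per gene.

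Sord (ENSMUSG00000027227, chr2:122234749-122265340, plus strand) encodes sorbitol dehydrogenase and has 1 annotated transcript. It measured 23.4, 24.2 and 26.7 CPM at 5 mM and 13.3, 16.1 and 15.0 CPM at 25 mM. Conditions were far apart relative to their spread, with means of 24.7 ± 1.71 and 14.8 ± 1.39 CPM (SD, n = 3), a difference of -40.2%. The log2 fold change of -0.74 ± 0.19 (SE) had an unadjusted p of 0.0040 and an adjusted p of 0.0696 in edgeR, ranking 1211 of 21061 genes. It was -0.97 with batch 1 libraries alone (edgeR, adjusted p = 0.0246) and -0.50 with batch 2 alone (adjusted p = 0.438). DESeq2 gave it an adjusted p of 0.0039, and edgeR without 5 mM replicate 1 gave 0.0240.

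The 250 bases before the annotated start of Sord (RefSeq, GRCm38.p6, chr2:122234589-122234838, plus strand) and of Nagk (chr6:83794750-83794999, plus strand) are shown because these were the genes without overlap that had a promoter entry. Capitals mark the GC box GGGCGG, bound by SP and KLF factors, on either strand.
Sord: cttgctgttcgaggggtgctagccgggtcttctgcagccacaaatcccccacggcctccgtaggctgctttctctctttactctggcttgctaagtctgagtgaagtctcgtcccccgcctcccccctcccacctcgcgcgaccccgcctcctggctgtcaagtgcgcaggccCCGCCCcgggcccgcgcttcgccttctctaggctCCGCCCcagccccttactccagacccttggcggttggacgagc
Nagk: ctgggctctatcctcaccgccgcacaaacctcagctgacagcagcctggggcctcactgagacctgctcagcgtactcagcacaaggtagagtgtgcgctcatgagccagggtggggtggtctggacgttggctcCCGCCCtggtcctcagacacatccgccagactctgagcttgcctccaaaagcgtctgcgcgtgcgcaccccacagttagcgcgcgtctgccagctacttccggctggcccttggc
Promoters of 8 of the 10 genes matched the RefSeq table (Akr1b3 and Gnpnat1 had no entry), and all 9 promoters of these 8 genes held a GC box in their 300 bases, as did 35.7% of the 32851 promoters in the table. The Ogt promoters among the 9 overlap each other. GC content of the 9 ran from 48.3% to 70.3%, and its part in the GC box count was not tested. An E-box, CACGTG, the core of the sites bound by MondoA and ChREBP, was found in the Khk promoter only (7.15% of all promoters). The ER stress element, CCAAT and CCACG with 9 bases between them, the XBP1 site TGACG followed by TGG, and the tonicity core TGGAAA were in none of the 9 (0.119%, 0.676% and 21.4% of all promoters). A carbohydrate response element was searched only in a strict form, a pair of exact CACGTG E-boxes 5 bases apart. This string was in no promoter of the table, so its absence here says nothing about the pathway genes. Both strands were searched, and no match says only that these letters are not in the window.

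Khk (ENSMUSG00000029162, chr5:30921431-30931248, plus strand), the fructose kinase, was among the least abundant of the 10. It measured 1.25, 5.52 and 4.45 CPM at 5 mM and 3.80, 1.97 and 3.32 CPM at 25 mM. The 5 mM values spanned the whole 25 mM range, and the log2 fold change was -0.30 ± 0.52 (SE; edgeR, adjusted p = 0.726). By batch it was 0.29 in batch 1 and -0.78 in batch 2, and without 5 mM replicate 2 it was 0.09. Khk isoforms A and C are known to differ by a pair of mutually exclusive exons, here 135 bases each, at chr5:30926688-30926822 and chr5:30927022-30927156. Transcripts with the upstream exon alone took 51.0%, 50.2% and 52.9% of coding Khk counts at 5 mM and 52.9%, 58.6% and 51.7% at 25 mM. With the downstream exon alone the shares were 9.33%, 20.1% and 8.94% at 5 mM and 31.6%, 28.1% and 24.6% at 25 mM, which did not overlap with batches summed but did in batch 2. The transcript with neither exon took 39.7%, 29.7% and 35.7% at 5 mM and 15.4%, 13.3% and 21.2% at 25 mM, also without overlap with batches summed but overlapping in batch 2. Among coding transcripts of all genes, 7.89% lay above and 6.53% below in this way. In limma on the ratio of each transcript to the other coding transcripts of its gene, both had an adjusted p of 0.694. These shares rest on 770 counts over all 12 libraries.

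**Figure D2:**
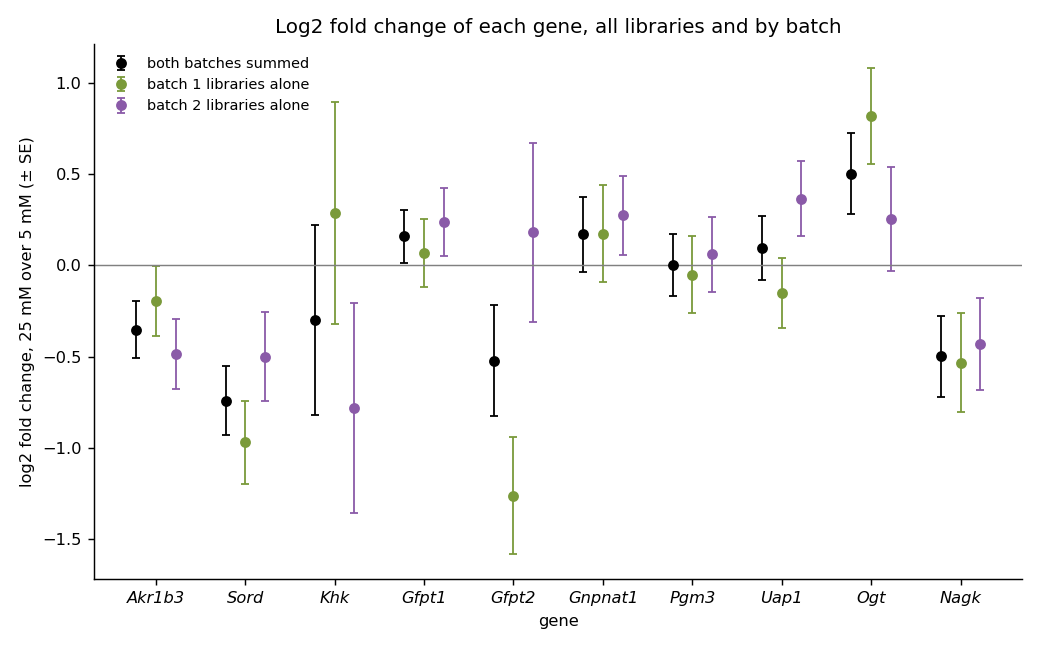
Log2 fold change of 25 mM over 5 mM glucose (y axis, ± SE from edgeR) for each of the 10 genes (x axis), with technical replicates summed (black), batch 1 libraries alone (green) and batch 2 libraries alone (purple). Akr1b3, Sord and Nagk lie under 0 and Gfpt1, Gnpnat1 and Ogt above 0 in both batches, and Gfpt2, Khk, Uap1 and Pgm3 change sign between batches.

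At the entry of the hexosamine pathway, the isozymes of glutamine fructose-6-phosphate transaminase had unequal levels. Per length, Gfpt1 (ENSMUSG00000029992, chr6:87042846-87092197, plus strand) had 23.6 CPM per kilobase at 5 mM and Gfpt2 (ENSMUSG00000020363, chr11:49794178-49838613, plus strand) 4.60. For Gfpt1, the replicates at 5 mM measured 131.5, 115.5 and 123.7 CPM and those at 25 mM 130.4, 144.3 and 139.1 CPM. The lowest 25 mM replicate lay inside the 5 mM range, and the log2 fold change was 0.16 ± 0.15 (SE; edgeR, adjusted p = 0.488). The isozyme Gfpt2 measured 11.3, 15.0 and 14.5 CPM at 5 mM and 5.98, 9.94 and 12.4 CPM at 25 mM, with an overlap of the highest 25 mM and the lowest 5 mM replicate. Its log2 fold change of -0.52 ± 0.30 (SE; edgeR, adjusted p = 0.284) differed in sign by batch, at -1.26 with batch 1 alone (adjusted p = 0.0314) and 0.18 with batch 2 alone (adjusted p = 0.878).

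The main Gfpt1 transcript was Gfpt1-204, with 34008 of 34844 coding counts. Gfpt1-201, whose protein carries the extra exon of the long form known from muscle, held 463 counts, and its share was 0.859%, 3.40% and 0.539% at 5 mM and 0.742%, 0.609% and 2.10% at 25 mM. The extra exon, 48 coding bases at chr6:87060785-87060832 on the plus strand, is shown as the stretch that few Gfpt1 counts carried.
Gfpt1-201 exon: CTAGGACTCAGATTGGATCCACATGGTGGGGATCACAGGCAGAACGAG

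Genes of the middle steps showed no separation between conditions. Gnpnat1 (ENSMUSG00000037722, chr14:45376334-45404913, minus strand), the glucosamine 6-phosphate acetyltransferase, measured 47.2, 35.5 and 36.0 CPM at 5 mM and 44.7, 52.7 and 36.2 CPM at 25 mM (log2 fold change 0.17 ± 0.21, SE; edgeR, adjusted p = 0.601). Its exons overlap those of Gm25353 on the same strand and Styx on the opposite strand, and whether counting used strand is not given, so its count may hold reads of these. Pgm3 (ENSMUSG00000056131, chr9:86554377-86571842, minus strand), the phosphoacetylglucosamine mutase, measured 42.8, 37.8 and 41.2 CPM at 5 mM and 36.2, 40.2 and 45.7 CPM at 25 mM. With means of 40.6 ± 2.57 and 40.7 ± 4.74 CPM (SD, n = 3), Pgm3 was the gene closest to no difference among the 10 (log2 fold change 0.0028 ± 0.17, SE; edgeR, adjusted p = 0.994), and its sign turned in 8 alternative fits. Exons of Dop1a on the opposite strand overlap it.

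Uap1 (ENSMUSG00000026670, chr1:170141938-170174957, minus strand) encodes the pyrophosphorylase that makes UDP-GlcNAc. Gene-level counts were 65.9, 54.9 and 64.8 CPM at 5 mM and 55.5, 72.6 and 70.3 CPM at 25 mM, which overlapped (log2 fold change 0.10 ± 0.17, SE; edgeR, adjusted p = 0.735). Its 3 coding transcripts differ by an alternative exon near the end of the coding sequence, which Uap1-202 lacks. The exon is 51 coding bases in Uap1-203 (chr1:170147996-170148046, minus strand) and 48 in Uap1-201, and the capitals mark the 3 bases that Uap1-201 leaves out at the acceptor site. Proteins with and without this exon are known as AGX2 and AGX1, which prefer different N-acetylhexosamine phosphates.
Uap1-203 exon: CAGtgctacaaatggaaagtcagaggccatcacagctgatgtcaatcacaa

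The share of coding Uap1 counts on the transcript without the exon was 37.8%, 45.3% and 42.9% at 5 mM and 72.7%, 54.5% and 59.6% at 25 mM. Every 25 mM replicate was above every 5 mM replicate, with means of 42.0% ± 3.84 and 62.3% ± 9.37 (SD, n = 3), a difference of 20.2 percentage points. An exact two-sided permutation test gave p = 0.1, the smallest that 3 against 3 allows. This share was chosen after the transcript values had been seen. It separated conditions in each batch alone, by 23.4 points in batch 1 and 19.7 in batch 2. In CPM, Uap1-202 had means of 25.3 and 37.5 at 5 mM and 25 mM, and Uap1-203 of 28.5 and 18.5. In limma across 26322 coding transcripts of all genes, the ratio of Uap1-202 to the other coding transcripts differed by 1.21 ± 0.42 on the log2 scale (SE) with an unadjusted p of 0.0319 and an adjusted p of 0.694. No transcript of the 10 genes passed an FDR of 0.05 in that fit, where 0.019% of transcripts did. All 25 mM replicates lay above for 7.89% and below for 6.53% of the transcripts.

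**Figure D3:**
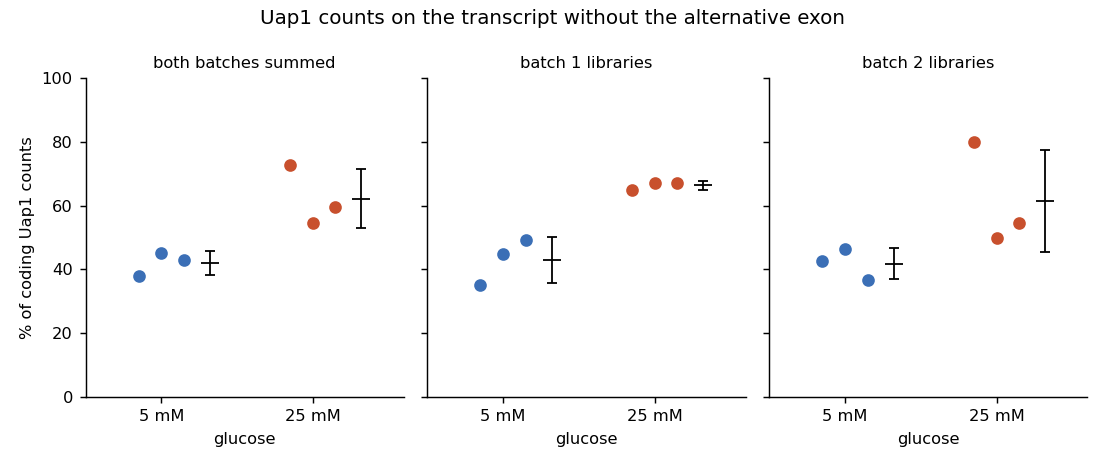
Percent of coding Uap1 counts on Uap1-202, the transcript without the alternative exon (y axis), at 5 mM (blue) and 25 mM glucose (red), with technical replicates summed (left) and in each batch alone (middle and right). Points are the 3 biological replicates and the black mark and bar the mean ± SD. The 25 mM replicates lie above the 5 mM replicates in all 3 panels.

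Ogt (ENSMUSG00000034160, chrX:101640060-101684351, plus strand) encodes O-GlcNAc transferase, which attaches GlcNAc to serine and threonine of nuclear and cytosolic proteins. It was the most abundant of the 10 genes, at 554, 391 and 441 CPM in the 5 mM replicates and 757, 692 and 514 CPM in the 25 mM replicates. The conditions overlapped through 5 mM replicate 1 and 25 mM replicate 3, and the means were 462 ± 83.6 and 654 ± 126 CPM (SD, n = 3). The log2 fold change was 0.50 ± 0.22 (SE; edgeR, unadjusted p = 0.0513, adjusted p = 0.176). By batch it was 0.82 and 0.25, and the highest and lowest technical libraries at 25 mM, 988 CPM in replicate 2 and 411 CPM in replicate 3, came from batch 1 and batch 2. Without 5 mM replicate 1 the adjusted p was 0.0455.

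Ogt has 21 introns in its main transcript Ogt-201, and intron 4 (chrX:101652209-101655623, 3415 bases) is known to be kept in part of its RNA, in an amount that follows cellular O-GlcNAc. All 5 noncoding Ogt transcripts of the annotation reach into this intron and into no other. Each covers it only in part, Ogt-204 the most with 2378 bases. The junctions are shown because reads that cross them tell kept from spliced RNA, with the exon bases in capitals (chrX:101652179-101652328 and chrX:101655504-101655653, plus strand).
Exon 4 to intron 4: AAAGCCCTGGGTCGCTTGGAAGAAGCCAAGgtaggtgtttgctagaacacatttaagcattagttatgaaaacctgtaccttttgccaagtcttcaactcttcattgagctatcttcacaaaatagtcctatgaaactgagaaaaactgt
Intron 4 to exon 5: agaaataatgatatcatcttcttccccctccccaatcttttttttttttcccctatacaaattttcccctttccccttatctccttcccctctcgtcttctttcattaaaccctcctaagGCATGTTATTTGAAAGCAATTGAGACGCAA

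The 3 transcripts annotated as retained intron, Ogt-204, Ogt-206 and Ogt-207, together held 88.7, 74.8 and 84.2 CPM at 5 mM and 169, 146 and 91.6 CPM at 25 mM. Transcript counts are estimates, since transcripts of a gene share exons. Coding Ogt transcripts held 322, 225 and 253 CPM at 5 mM and 414, 358 and 281 CPM at 25 mM. Retained-intron counts were therefore 0.276, 0.333 and 0.333 of the coding counts at 5 mM and 0.409, 0.408 and 0.326 at 25 mM. The third 25 mM replicate lay inside the 5 mM range. The log2 ratio of retained-intron to coding counts was 0.28 ± 0.22 higher at 25 mM (limma SE, adjusted p = 0.418; exact two-sided permutation p = 0.3, n = 3 per condition), at 0.40 in batch 1 and 0.12 in batch 2. With all 5 intron 4 transcripts in place of 3, a choice made after seeing the data, the log2 difference was 0.23 and the conditions did not overlap (exact permutation p = 0.1). These include Ogt-203, a processed transcript with 38243 counts that starts in the last 279 bases of the intron. Only these of its 3521 bases lie in intron 4, so the wider ratio does not measure kept intron alone. No such ratio was taken in other genes.

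The Ogt ratio was read beside the same ratio in other genes, since the libraries as a whole held relatively more retained-intron counts at 25 mM. Across 7046 genes with at least 60 counts of each kind, the log2 ratio was higher at 25 mM in 84.3%, with a median difference of 0.53. Its values at 25 mM lay above all 5 mM values in 33.6% of genes and below in 1.02%, while no gene, 0.0%, passed an FDR of 0.05 in limma (1936 had an unadjusted p under 0.05). The difference for Ogt was larger than that of 30.1% of these genes. Libraries were made from total RNA, so unspliced nuclear RNA and stable intron-holding transcripts count alike.

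**Figure D4:**
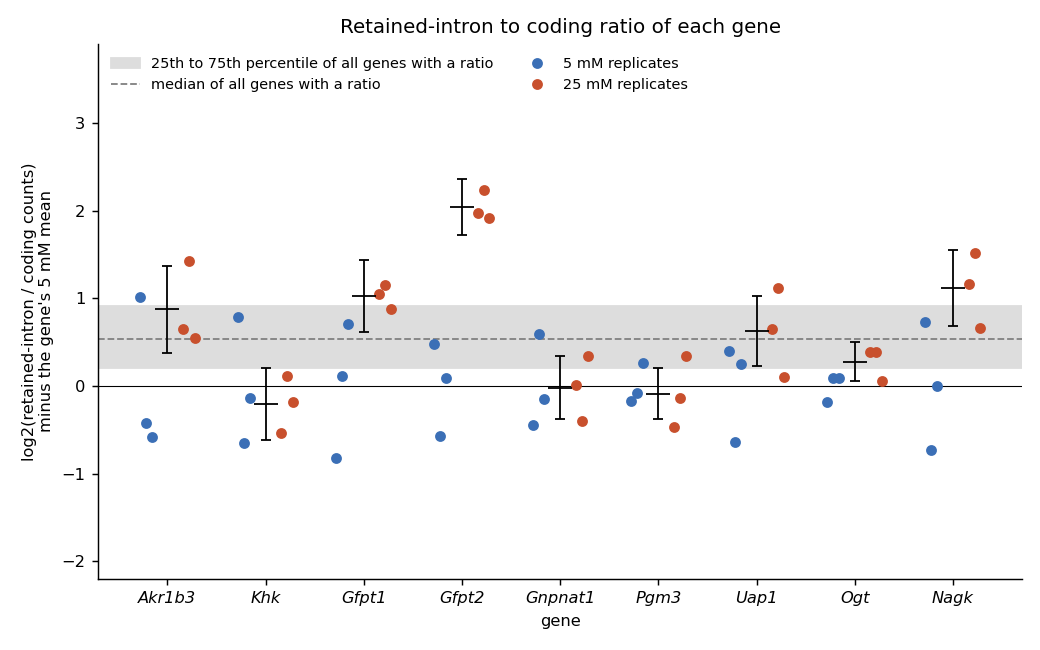
Log2 ratio of retained-intron to coding counts minus the gene's 5 mM mean (y axis) for the 9 genes with a ratio (x axis), in the 3 replicates at 5 mM (blue) and 25 mM glucose (red), with the difference of means ± SE from limma (black). The grey band spans the 25th to 75th percentile of the difference over all 7046 genes and the dashed line its median, 0.53. Gfpt1, Gfpt2 and Nagk lie above the band, Khk, Gnpnat1 and Pgm3 below it, and Ogt in its lower part.

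Of the 9 pathway genes with annotated retained introns, 6 had a higher ratio at 25 mM, beside 84.3% of the 7046 genes. In 2 of these, Gfpt1 and Gfpt2, the replicates did not overlap, beside 33.6% of the 7046 genes above in the same way. Neither count exceeds the share over all genes. Gfpt2 had the largest difference of the 9. Its log2 ratio was -4.10, -5.15 and -4.49 at 5 mM and -2.61, -2.34 and -2.66 at 25 mM. The difference was 2.04 ± 0.32 (limma SE, unadjusted p = 0.00057, adjusted p = 0.106), 2.71 in batch 1 and 1.66 in batch 2. It lay above the 95th percentile of all genes, 1.61. Without 5 mM replicate 1 its adjusted p was 0.0481 (limma), in a fit where 506 genes passed an FDR of 0.05. In shares of Gfpt2 counts, Gfpt2-202 took 5.46%, 2.66% and 4.20% at 5 mM and 13.9%, 16.4% and 13.6% at 25 mM, on 252 counts in all. This transcript keeps the whole of intron 2 (chr11:49805060-49807694, 2635 bases), whose junctions are shown with the exon bases in capitals (chr11:49805030-49805179 and chr11:49807575-49807724, plus strand).
Exon 2 to intron 2: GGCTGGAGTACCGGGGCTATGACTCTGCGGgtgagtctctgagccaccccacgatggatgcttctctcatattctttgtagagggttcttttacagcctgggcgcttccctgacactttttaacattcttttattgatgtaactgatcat
Intron 2 to exon 3: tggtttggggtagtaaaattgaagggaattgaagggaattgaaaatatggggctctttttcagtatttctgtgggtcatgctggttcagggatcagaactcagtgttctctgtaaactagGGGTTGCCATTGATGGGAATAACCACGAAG

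For Gfpt1 the log2 ratio was 1.03 ± 0.41 higher (limma SE, adjusted p = 0.172), 1.64 in batch 1, 0.449 in batch 2 and 0.616 without 5 mM replicate 1. Retained-intron counts took 0.657%, 1.25% and 1.87% of the gene at 5 mM and 2.37%, 2.52% and 2.10% at 25 mM. For Nagk it was 1.11 ± 0.43 higher (limma, adjusted p = 0.167), with overlap. Differences were 0.87 for Akr1b3 and 0.62 for Uap1, and -0.21 for Khk, -0.02 for Gnpnat1 and -0.09 for Pgm3, with overlapping replicates in all 5.

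Nagk (ENSMUSG00000034744, chr6:83794982-83804018, plus strand) encodes the kinase that returns GlcNAc from degraded glycans to the pathway. Its replicates measured 16.8, 23.7 and 24.9 CPM at 5 mM and 15.8, 14.0 and 16.4 CPM at 25 mM. The first 5 mM replicate lay just above the 25 mM range, and the other 2 well above it. The log2 fold change was -0.50 ± 0.22 (SE; edgeR, unadjusted p = 0.0531, adjusted p = 0.180), -0.53 in batch 1 and -0.43 in batch 2, and without 5 mM replicate 1 the adjusted p was 0.0360. Coding transcripts took a varying share of Nagk counts, at 31.1%, 58.8% and 43.7% at 5 mM and 30.8%, 25.0% and 40.0% at 25 mM. With coding transcripts alone the log2 fold change of Nagk was -0.83 (edgeR, adjusted p = 0.235) and that of Ogt 0.56 (adjusted p = 0.205), so no pathway gene passed on that measure either.

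Levels can be compared between genes only per length. In CPM per kilobase of transcript, the order of the 5 mM means was Ogt 115 ± 21.5, Akr1b3 47.0 ± 4.52, Uap1 30.1 ± 2.78, Gfpt1 23.6 ± 1.74, Gnpnat1 20.8 ± 4.22, Nagk 19.8 ± 3.84, Pgm3 18.1 ± 1.13, Sord 10.5 ± 0.70, Gfpt2 4.60 ± 0.66 and Khk 4.40 ± 2.66 (SD, n = 3). Neighbours from Gfpt1 to Pgm3 and the pair Gfpt2 and Khk lay within their spread. This order counts all transcripts of a gene. With coding transcripts alone, Ogt at 51.6 ± 7.53 and Akr1b3 at 43.4 ± 8.49 lay within their spread, and Nagk at 7.27 ± 3.32 came under Pgm3 at 11.6 ± 1.07 and Sord. Over all transcripts at 25 mM the means ran from 165 ± 30.7 for Ogt to 3.26 ± 1.14 for Gfpt2, with Nagk at 14.1 ± 1.10 and Sord at 6.37 ± 0.67.

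Neighbouring genes were described as lists, and no gene of any list passed an FDR of 0.05 in edgeR. Among 12 tested polyol, fructose and glycation genes the median log2 fold change was -0.06 (0.20 from batch 1 libraries and -0.28 from those of batch 2), and 2 had all 25 mM replicates above and 3 below. The same shares over all genes are 16.0% and 15.8%. The 3 below, Akr1b8, Akr1b10 and Akr1a1, are aldo-keto reductases, as is Akr1e1, 1 of the 2 above (log2 fold change 0.30; edgeR, adjusted p = 0.211). Akr1b8 measured 31.0, 64.4 and 66.6 CPM at 5 mM and 11.9, 15.3 and 26.9 CPM at 25 mM (log2 fold change -1.58 ± 0.38, SE; edgeR, adjusted p = 0.0654). For Akr1b10 the log2 fold change was -0.79 (edgeR, adjusted p = 0.0915) and for Akr1a1, aldehyde reductase, -0.59 (adjusted p = 0.106). With DESeq2, Akr1b8 (adjusted p = 0.0023) and Akr1b10 (adjusted p = 0.0133) were among the 12 that passed of the 18 genes named from all lists. The 18 were picked for a low unadjusted p in these counts, and DESeq2 passed 3489 of all 21061 genes.

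No gene around the hexosamine pathway passed the test. Of 12 hexosamine and sialic acid neighbours 9 had a negative fold change, with a median of -0.40, led by Gpi1, the isomerase that supplies fructose 6-phosphate (-0.83; edgeR, adjusted p = 0.103), Uap1l1, a paralog of Uap1 (-1.36; adjusted p = 0.103), and Renbp, which acts on N-acetylmannosamine (-1.03; adjusted p = 0.108). In all 3 the lowest 5 mM replicate, replicate 1, lay inside the 25 mM range. Of 15 users of UDP-GlcNAc and related glycosyltransferases 13 were negative, with a median of -0.61, and 7 had all 25 mM replicates below, beside 15.8% of all genes. Batch 1 alone gave a median of -0.998 and batch 2 alone -0.137. Galnt1, a related glycosyltransferase rather than a user of UDP-GlcNAc, measured 305, 304 and 327 CPM at 5 mM and 121, 192 and 203 CPM at 25 mM. Its log2 fold change was -0.86 (edgeR, adjusted p = 0.0701), and -0.18 with batch 2 alone. Mgat5 differed by -0.61 (edgeR, adjusted p = 0.0714) and Mgat3 by -0.59 (adjusted p = 0.0838), both branching enzymes of N-glycans.

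Of the O-GlcNAc genes beside Ogt, the secretory-pathway transferase Eogt differed by -0.57 (edgeR, adjusted p = 0.0989) and the Ogt substrate Hcfc1 by -0.43 (adjusted p = 0.155), both without overlap. O-GlcNAcase, annotated as Mgea5, measured 386, 292 and 318 CPM at 5 mM and 397, 401 and 357 CPM at 25 mM, a log2 difference of 0.21 (edgeR, adjusted p = 0.433) with overlapping replicates.

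The lists of osmotic genes and of XBP1 and ER chaperone genes were included because NFAT5 is known to drive Akr1b3 and XBP1 to drive hexosamine enzymes. The 7 tested osmotic genes had a median of 0.08, which was 0.31 for batch 1 libraries and -0.07 for those of batch 2. Slc5a3, the myo-inositol transporter, differed by -0.67 (edgeR, adjusted p = 0.106) and Slc38a2, an amino acid transporter, by -0.52 (adjusted p = 0.0809), while Aqp1 differed by 0.82 (adjusted p = 0.146), each without overlap. With batch 2 libraries alone these were smaller for Slc5a3 (-0.17, beside -1.04 with batch 1) and Slc38a2 (-0.08, beside -0.92). All 16 genes of the XBP1 and ER chaperone list, not all of them chaperones, had a negative fold change. Their median was -0.56, and -0.29 in batch 2, and 10 had all 25 mM replicates below, again beside 15.8% of all genes. Sdf2l1 had the lowest unadjusted p of these (log2 fold change -1.04; edgeR, adjusted p = 0.0602), followed by Pdia4 (-0.69; adjusted p = 0.0670) and Hyou1 (-0.94; adjusted p = 0.0701). Gfpt1, Gnpnat1 and Pgm3, hexosamine genes known as XBP1 targets, had log2 fold changes of 0.16, 0.17 and 0.0028 in the same fit.

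**Figure D5:**
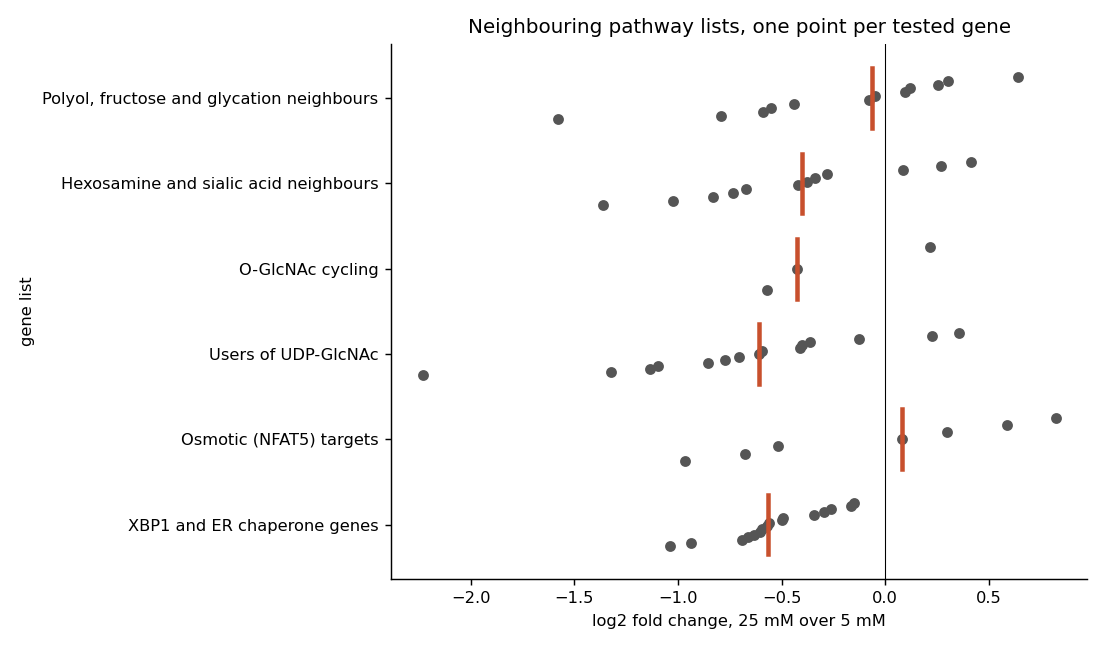
Log2 fold change of 25 mM over 5 mM glucose (x axis) for each tested gene (points) of the 6 neighbouring lists (y axis), with the median of each list as a red bar. All 16 genes of the XBP1 and ER chaperone list lie under 0, as do 13 of 15 UDP-GlcNAc users and related glycosyltransferases. No gene shown passed an FDR of 0.05.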

How the data were processed

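Retinal explant RNA was profiled by total RNA-seq with a stranded low-input kit (SMARTer Pico v2, 4 ng RNA, 13 PCR cycles, paired reads of 101 bases). The authors deposited expected counts per gene (53707) and per transcript (146263), on GRCm38 per the labels. The counting tool and its use of strand are not given in the sources used here. Genes with 1 transcript differed from the transcript table by a median factor of 0.979 to 1.0137 per library, and the reason was not tested. Technical replicates were summed and rounded, giving 37944826 to 60098862 counts per sample. Genes were filtered with filterByExpr, normalised by TMM and tested with edgeR 4.0.16 in R 4.3.3, and the design had no covariate. The quasi-likelihood fit was that of edgeR 3, with Benjamini-Hochberg adjustment over 21061 genes. The edgeR 4 form was an alternative, with 595 genes and no pathway gene at an FDR under 0.05. Ratios of retained-intron to coding counts (pseudocount 0.5, at least 60 counts of each kind) and isoform shares were tested with limma 3.58.1. DESeq2 1.42.0, limma-voom, other scalings and filters, single batches, a replicate block and leaving out each replicate were alternatives. Scripts were tested on simulated data. Annotation was GENCODE M21, and promoters came from RefSeq (GRCm38.p6). The pathway genes, the lists and the tests were chosen with earlier results of these data known. All 10 genes are named, and from each list the 3 with the lowest unadjusted p among those with at least 1 CPM. No source says whether equal replicate numbers pair samples, and deviations of same-numbered samples correlated at -0.00385, -0.486 and 0.31, so the fit without a block was kept.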

Additional observations from a re-analysis of the deposited data

Results flagged for a closer look

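One library of Gnpnat1 stood apart from the others of its condition. At 5 mM, replicate 1 measured 54.0 CPM in its batch 1 library, while the other 5 libraries measured 35.1 to 36.8 CPM. The gap to the nearest library was 0.91 of the whole range, beyond Dixon's 95% critical value of 0.625 for 6 libraries. Of 22 groups of libraries tested this was the 1 beyond it, where chance gives about 1 in 20, and the 6 libraries are technical pairs of 3 replicates.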

How the results depend on the processing

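Among all genes, the count with an FDR under 0.05 was 417 (74.1% higher at 25 mM), and it was 3489 with DESeq2 (42.4% higher), 1979 with no filter on low counts (38.3%), 3279 with batch 1 alone (41.4%), 0 with batch 2 alone (edgeR, 2203 at an unadjusted p under 0.05), 990 with the replicate block (40.9%) and 0 to 5845 with each replicate left out, the highest without 5 mM replicate 1 (43.9%). Of the pathway genes 0 passed, 1 with DESeq2, 2 with batch 1 alone and 0 to 3 with each replicate left out. With the replicate block none of the 10 passed, and of the listed neighbours Akr1b8 did (edgeR, adjusted p = 0.0264). Pathway genes without overlap numbered 3 (Akr1b3, Sord and Nagk below), 3 with library totals (Gfpt1 and Ogt above, Sord below), 3 with batch 1 alone (Ogt above, Gfpt2 and Sord below), 2 with batch 2 alone and 1 with transcript counts summed per gene. Over all genes the shares above and below were 20.2% and 11.3% with library totals and 20.8% and 20.6% with batch 1 alone. With batch 2 alone they were 8.23% and 7.91%, and with transcript sums 16.5% and 15.7%. The pathway genes' median log2 fold change of -0.15 was -0.0396 with limma-voom, 0.12 with batch 2 alone and -0.231 to -0.017 with each replicate left out, and relative to all genes -0.138 became -0.0418, 0.148 and -0.227 to -0.00583. The osmotic list's median turned to -0.0677 with batch 2 alone, -0.0709 with transcript sums and lay between -0.044 and 0.181 with each replicate left out, and the polyol list's to 0.195 with batch 1 alone.

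Of 180 fits of single pathway genes 12 turned the sign. Khk gave 0.288 with batch 1 alone and -0.715 to 0.0855 with each replicate left out, Gfpt2 0.181 with batch 2 alone and Uap1 -0.151 with batch 1 alone. Pgm3 gave -0.00351 with RLE size factors, -0.00355 with DESeq2, -0.00288 with limma-voom, -0.013 with no filter, -0.0511 with batch 1 alone, -0.00157 with the replicate block and -0.0915 to 0.0893 with each replicate left out. The 18 named list genes kept their sign in all 306 fits and passed in 44 of them, 12 of these with DESeq2. They were picked for a low unadjusted p in the same counts, so this does not test their stability. DESeq2 passed 3489 of all 21061 genes. With batch 2 alone Slc38a2 gave -0.0814, Slc5a3 -0.174 and Galnt1 -0.178. Differences in the retained-intron ratio, whose alternatives for genes other than Ogt were added after seeing the data, turned for Gnpnat1 to 0.347 and Pgm3 to 0.386 with batch 1 alone and for Uap1 to -0.182 with batch 2 alone. With each replicate left out they were -0.531 to 0.188 for Khk, -0.241 to 0.277 for Gnpnat1 and -0.303 to 0.0988 for Pgm3, and 0.186 to 0.386 for Ogt. Genes past an FDR of 0.05 in this ratio numbered 1 with a minimum of 300 counts and 0 to 506 with each replicate left out, the highest without 5 mM replicate 1. The causes were not tested. With 3 samples a condition, the exact test cannot go below 0.1, and Khk rests on few counts.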
